A study of Mus musculus with 46 samples.

Results

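Wild type mouse lung after 72 h in 100% oxygen was compared with wild type lung at 0 h. The comparison rests on 12 of the 46 arrays of the study, chosen by their titles: 6 arrays of wild type mice after 72 h of oxygen and 6 arrays of wild type mice at time point zero. Each group had 2 arrays, replicates 1a and 1b, on each of 3 oligonucleotide array types (A, B and C), and total RNA of lung tissue was hybridised. The other 34 arrays were wild type lung at 24 and 48 h of oxygen and lung of Nrf2 mutant mice at 0 h and at 24, 48 and 72 h of oxygen, which entered the fit only to estimate the spread, apart from the wild type 48 h group, to which 72 h is also compared. The labels give no strain, age, sex or number of animals per array, and do not say whether 1a and 1b came from separate animals, so the p-values measure only the spread between these samples. No allele or treatment other than oxygen is named for the wild type mice. The study has no group kept in air for 72 h. An effect of oxygen therefore cannot be told apart from that of the time passed or of handling.

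Hyperoxia, breathing of nearly pure oxygen, fills lung cells with reactive oxygen species. Over days it damages the capillary endothelium and the alveolar epithelium, lets fluid and blood cells into the air spaces, and starts repair by surviving epithelium and fibroblasts. Cells under such stress are known to slow bulk protein synthesis, to make more of the enzymes that load and take up amino acids, and to change genes of matrix, cytoskeleton and growth factor signalling.

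The RNA had the defining transcripts of lung in both groups. Sftpc, a surfactant protein of alveolar type 2 cells, read 12523 and 15485 at 72 h, against 15791 and 9365 at 0 h, and Scgb1a1, the secretoglobin of club cells, read 18232 and 22628 at 72 h, against 15221 and 14184 at 0 h. Values are deposited intensities in the order 1a and 1b, and are not comparable between probe sets. The pairs of replicates correlated at 0.914 to 0.962 at 72 h and at 0.902 to 0.967 at 0 h over the log2 values of an array type. The ratio of 3′ to 5′ Gapdh probe sets, which rises as RNA is degraded, was 0.858 to 1.13 at 72 h and 1.10 to 1.44 at 0 h. Nrf2 mutant lung at 0 h stood apart in this ratio, at 1.67 to 2.26, and enters no difference reported here. The part of the ratio in the differences between 72 h and 0 h was not tested. The Nrf2 gene Nfe2l2 itself read 3319 and 4231 at 72 h, against 2428 and 2659 at 0 h, and was not called (log2 difference 0.55 ± 0.21, adjusted p = 0.152).

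After 72 h of oxygen, 2107 of 26821 tested probe sets (7.86%) differed from 0 h. Of the tested probe sets, 1145 were higher (4.27%) and 962 lower (3.59%) than at 0 h. Differences are log2 of 72 h minus 0 h with the standard error of the limma fit, and calls were made where the p adjusted across all 3 array types was under 0.05. Counted by gene, with the brightest probe set standing for each, 1310 of 13393 genes were called (9.78%), 686 of them higher (5.12%) and 624 lower (4.66%). The median difference over all genes was -0.06. At an unadjusted p under 0.05 there were 5773 probe sets. The arrays of the groups did not overlap for 13564 of the 26821 tested probe sets (50.6%), among them all 2107 called ones, so that every called gene below has its 72 h arrays on 1 side of its 0 h arrays.

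The number of calls depends on the arrays that enter the fit. Leaving out wild type 72 h replicate 1a gave 1065 calls, 72 h replicate 1b 816, 0 h replicate 1a 982 and 0 h replicate 1b 821. A fit of the 12 arrays alone, without the spread of the other groups, gave 587. Beside many of the family counts below, 5 further counts stand in this order: without 72 h replicate 1a, without 72 h replicate 1b, without 0 h replicate 1a, without 0 h replicate 1b, and with the 12 arrays only. A family count printed without any of them is that of the full fit and may not hold with fewer arrays. Of 338 probe sets named by a fixed rule, 134 were called in all of these fits as well as in the full one. The genes described below come from those 134 unless another value is given beside them. Where a group lay below the filter value for dim signal, its difference depends on the constant added before the log2 and is no bound; such genes are marked as dim.

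**Figure D1:**
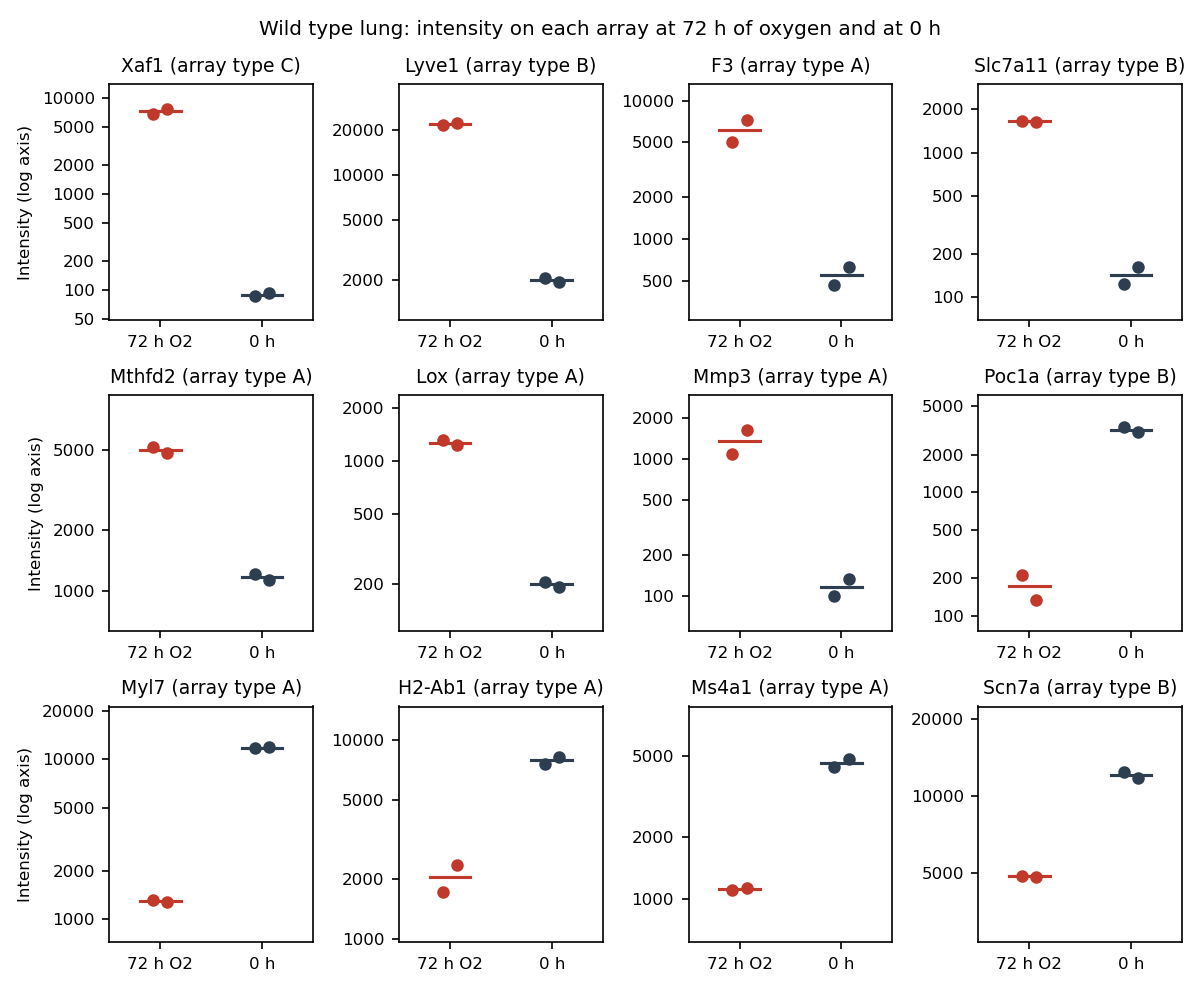
Intensity on each array (log axis) for 12 genes, with wild type 72 h on the left and wild type 0 h on the right of each panel; points are replicates 1a and 1b and the bar is their mean. Lyve1, for example, was at 21303 and 22094 at 72 h, against 2086 and 1950.4 at 0 h, and such a gap is part of how the genes were chosen.

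The 20 largest rises included coagulation, receptor and signalling genes. Xaf1, a proapoptotic gene that interferons induce, read 6894 and 7756 at 72 h, against 87.0 and 92.3 at 0 h, where it was dim (5.25 ± 0.37, adjusted p = 2.19e-05). Lyve1, the hyaluronan receptor known from lymphatic endothelium, read 21303 and 22094 at 72 h, against 2086 and 1950.4 at 0 h (3.35 ± 0.20, adjusted p = 6.21e-06). F3, tissue factor, which starts coagulation, read 5015 and 7291 at 72 h, against 464 and 629 at 0 h (3.31 ± 0.25, adjusted p = 6.27e-05). Lyve1 was bright in both groups, and Xaf1 was near the low end of the array at 0 h. Rps6ka3, a kinase downstream of ERK, read 3822 and 3426 at 72 h, against 673 and 419 at 0 h (2.54 ± 0.30, adjusted p = 0.000385). Pvr, the poliovirus receptor and a ligand of natural killer cell receptors, read 1809 and 1604 at 72 h, against 164 and 216 at 0 h, dim at 0 h (2.54 ± 0.25, adjusted p = 9.85e-05). Ier5l, an immediate early response gene, read 12789.7 and 15444 at 72 h, against 1340.3 and 1606 at 0 h (3.17 ± 0.24, adjusted p = 3.04e-05). Vnn1, a pantetheinase, read 1936 and 1729 at 72 h, against 113 and 123 at 0 h, dim at 0 h (3.12 ± 0.29, adjusted p = 9.18e-05). These probe sets came from array types A, B and C.

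Among the 20 largest falls were the striated muscle genes Csrp3, Myl7, Acta1, Myl4, Tnnc1, Pgam2 and Myl3, part of which are described with the cell markers below. Poc1a, a centriole protein, read 212 and 134 at 72 h, against 3412 and 3074 at 0 h, dim at 72 h (-3.51 ± 0.27, adjusted p = 3.04e-05). Rprml, related to the p53 target reprimo, read 275 and 307 at 72 h, against 2905 and 3910 at 0 h (-3.13 ± 0.33, adjusted p = 0.000172). Tmem14c, a mitochondrial membrane protein needed for heme synthesis in erythroid cells, read 327 and 369 at 72 h, against 2389 and 2421 at 0 h (-2.54 ± 0.18, adjusted p = 4.37e-05). Mzb1, an endoplasmic reticulum protein of B and plasma cells, read 164 and 100.2 at 72 h, against 1635 and 2519.7 at 0 h, dim at 72 h (-3.07 ± 0.25, adjusted p = 3.4e-05). Gbp3, an interferon-induced guanylate-binding protein, read 393 and 357 at 72 h, against 1989 and 2125 at 0 h (-2.24 ± 0.18, adjusted p = 9.06e-05). Pxt1 read 1235 and 1208 at 72 h, against 7404 and 6652 at 0 h (-2.42 ± 0.29, adjusted p = 0.000418).

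Across 68 gene families and 18 lists of cell type markers, 388 of 2773 tested genes were called, against 9.78% of all genes, with 222 higher and 166 lower. The lists and their members were chosen with earlier results of these data known. An excess over all genes can therefore be built in, here and in the family shares below. In 21 of these 86 lists all called members were higher, in 15 all were lower, in 44 both occurred and 6 had no call. The count was 218, 172, 193, 174 and 137 in the 5 other fits. Families were read against the share of all genes called in the full fit, 5.12% higher and 4.66% lower. These shares are no measure for the counts of the 5 other fits, in which fewer probe sets were called. With the arrays of the compared groups only, 341 probe sets were higher and 246 lower, against 1145 and 962 in the full fit. The share of all genes called in each of those fits is not given here.

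**Figure D2:**
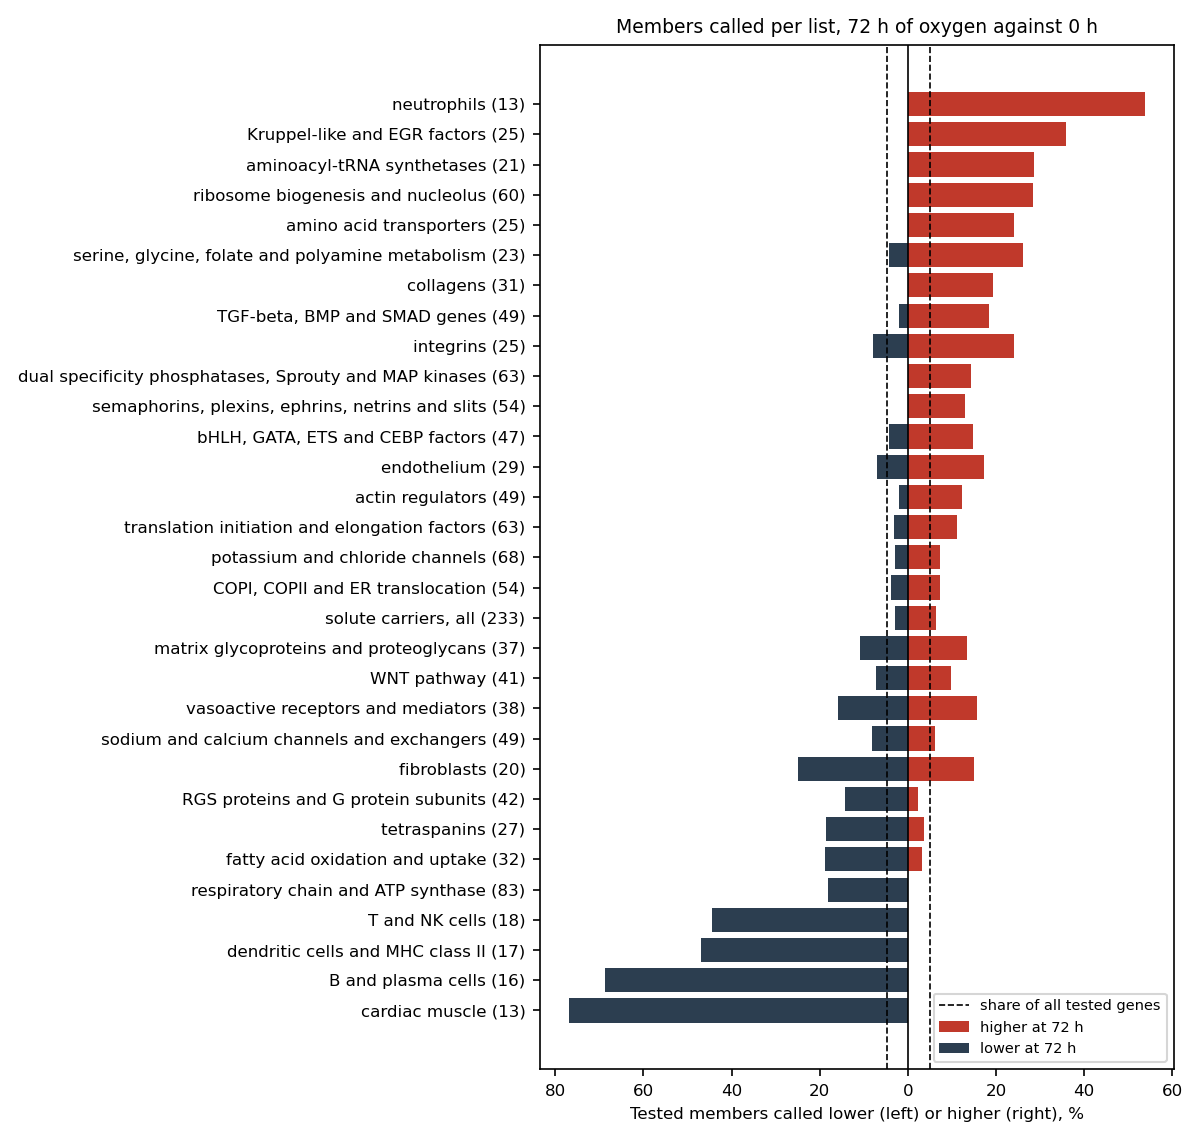
Percent of tested members called higher (to the right) and lower (to the left) at 72 h than at 0 h, for the families and marker lists with 6 or more calls, 1 family left out; the number of tested members is in parentheses and dashed lines mark the share of all tested genes, 5.12% and 4.66%. Neutrophil markers are highest on the right at 53.8% and cardiac muscle markers on the left at 76.9%.

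Part of the genes that supply amino acids for translation were called higher. Aminoacyl-tRNA synthetases, which load amino acids onto transfer RNAs, had 6 of 21 tested members higher (28.6%) and 0 lower, with a list median of 0.57 (5 other fits: 4, 5, 5, 4 and 4). Iars, which loads isoleucine, read 2396 and 2007 at 72 h, against 712 and 696 at 0 h (1.54 ± 0.17, adjusted p = 0.000597). Eprs, which loads glutamate and proline, read 1046 and 1171 at 72 h, against 377 and 339.8 at 0 h (1.44 ± 0.18, adjusted p = 0.00108). Aars, for alanine, read 1590 and 1478 at 72 h, against 531 and 525 at 0 h (1.41 ± 0.21, adjusted p = 0.00281). Mars1, for methionine, read 1393 and 1362 at 72 h, against 449 and 614 at 0 h (1.27 ± 0.18, adjusted p = 0.0027). For these 4 enzymes each array at 72 h was more than 2-fold above each array at 0 h. Wars, for tryptophan, lay on the other side without a call, with 1934 and 1528 at 72 h, against 2760 and 3148 at 0 h (log2 difference -0.74 ± 0.26, adjusted p = 0.108).

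Serine, folate and polyamine metabolism had 6 of 23 members higher (26.1%) and 1 lower (higher in 5 other fits: 6, 6, 5, 6 and 5; lower: 1, 1, 1, 1 and 1). Mthfd2, a mitochondrial enzyme of the folate cycle, read 5142 and 4792 at 72 h, against 1216 and 1132 at 0 h (2.01 ± 0.16, adjusted p = 8.3e-05). Psat1, an enzyme of serine synthesis, read 1557 and 2013 at 72 h, against 453 and 433 at 0 h (1.83 ± 0.19, adjusted p = 0.00039). Asns, which makes asparagine, read 7433 and 7249 at 72 h, against 2323 and 2264 at 0 h (1.65 ± 0.14, adjusted p = 0.000106). The replicates of each group were close for Mthfd2 and Asns, and less so for Psat1 at 72 h. Around polyamines, Odc1, the first enzyme of their synthesis, read 1534 and 1955 at 72 h, against 666 and 726 at 0 h (1.23 ± 0.16, adjusted p = 0.00167). Arg2, the arginase that makes its substrate ornithine, read 985 and 1448 at 72 h, against 213 and 180.2 at 0 h (2.22 ± 0.22, adjusted p = 0.000235). Oaz2, an antizyme that inhibits ornithine decarboxylase, was the member that fell, with 2119 and 1885 at 72 h, against 5491 and 4981 at 0 h (-1.35 ± 0.19, adjusted p = 0.00195).

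Amino acid transporters had 6 of 25 members higher (24.0%) and 0 lower, with a median of 0.08 (5 other fits: 3, 2, 1, 2 and 1). Slc7a11, the cystine and glutamate exchanger, read 1646 and 1642 at 72 h, against 124 and 163 at 0 h, dim at 0 h (2.72 ± 0.21, adjusted p = 3.04e-05), and it was the member called in every fit. Its partner chain Slc3a2 read 9689.8 and 13645 at 72 h, against 5870 and 6129.6 at 0 h, and its adjusted p of 0.0179 in the full fit became 0.0858 with the 12 arrays only. The other calls (Slc1a5, Slc7a1, Slc7a2 and Slc7a5) likewise did not hold in every fit.

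The motif TGATGNAA, the core of the C/EBP and ATF response element through which ATF4 is known to act on amino acid genes, was searched on both strands of RefSeq promoter windows (GRCm38.p6, from 250 bases before to 50 after the gene start). The motif was chosen with these results known. It occurs in 1304 of 32851 windows of 300 bases (3.969%). The families were counted by gene, with a match in any window of the gene, so their counts are not in the same unit as this share of windows. Among the called synthetases it was in 3 of 6 genes (Aars, Iars and Yars) and in 5 of 14 tested. Of called serine and polyamine genes 1 of 4 had it (Asns), and 1 of 17 tested. Of called amino acid transporters 1 of 3 had it (Slc7a11), and 3 of 18 tested. A match describes letters in a window and not a bound site. Windows of 3 genes that rose, 1 from each of the 3 families above, are shown because they hold the motif, and do not stand for the other members. The motif is in capitals (read on either strand). The Iars window is at chr13:49681880-49682179 on the plus strand. Those of Asns, at chr6:7693160-7693459, and Slc7a11, at chr3:50443564-50443863, are on the minus strand.
Iars: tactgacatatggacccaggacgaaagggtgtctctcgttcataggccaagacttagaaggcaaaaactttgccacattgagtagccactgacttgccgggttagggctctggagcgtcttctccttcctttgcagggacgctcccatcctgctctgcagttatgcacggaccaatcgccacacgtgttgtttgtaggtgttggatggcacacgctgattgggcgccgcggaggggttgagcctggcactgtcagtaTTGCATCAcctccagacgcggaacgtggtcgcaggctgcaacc
Asns: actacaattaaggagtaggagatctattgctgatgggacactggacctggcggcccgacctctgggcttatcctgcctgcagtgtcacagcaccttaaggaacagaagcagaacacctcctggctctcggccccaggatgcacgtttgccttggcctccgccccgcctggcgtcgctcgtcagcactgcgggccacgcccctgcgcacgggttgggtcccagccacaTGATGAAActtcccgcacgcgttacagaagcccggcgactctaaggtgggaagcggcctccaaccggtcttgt
Slc7a11: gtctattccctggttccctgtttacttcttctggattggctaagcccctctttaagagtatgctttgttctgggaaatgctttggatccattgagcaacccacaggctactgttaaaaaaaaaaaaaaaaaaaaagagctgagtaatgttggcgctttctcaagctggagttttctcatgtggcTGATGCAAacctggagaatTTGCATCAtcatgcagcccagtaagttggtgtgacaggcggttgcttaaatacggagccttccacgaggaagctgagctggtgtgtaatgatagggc

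The Iars and Asns windows hold the motif once, and Slc7a11 has 2 matches, 1 in each orientation. Asns had 3 of its 5 probe sets called higher, and the other 2, both on array type C, were not called and read lower at 72 h. Over time the probe set of Asns given above was at 2323 and 2264 at 0 h, 2383 on the 1 array at 24 h, 4309 and 4487 at 48 h and 7433 and 7249 at 72 h. Mthfd2 was at 1216 and 1132 at 0 h, 1315 on the 1 array at 24 h, 2244 and 2576 at 48 h and 5142 and 4792 at 72 h.

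Ribosome biogenesis and nucleolar genes, which process ribosomal RNA and assemble subunits, had 17 of 60 members higher (28.3%) and 0 lower, with a median of 0.40 (higher in 5 other fits: 9, 5, 11, 8 and 6; lower: 1, 0, 0, 0 and 0). Heatr1, a factor of ribosomal RNA transcription and processing, read 1085 and 1334 at 72 h, against 97.3 and 156 at 0 h, dim at 0 h (2.40 ± 0.20, adjusted p = 4.36e-05). Rrs1, a regulator of ribosome synthesis, read 999.7 and 931 at 72 h, against 363 and 353 at 0 h (1.26 ± 0.15, adjusted p = 0.000852). Gnl3, nucleostemin, read 932 and 1124 at 72 h, against 399 and 422 at 0 h (1.17 ± 0.17, adjusted p = 0.0027). Gtpbp4, a GTPase of large subunit assembly, read 4002 and 3559.9 at 72 h, against 1710.5 and 1701 at 0 h (1.11 ± 0.17, adjusted p = 0.00358).

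The ribosome's own proteins gave few calls. Cytosolic ribosomal proteins had 0 of 38 tested members higher and 2 lower (median -0.24; the 2 lower calls were absent in the 5 other fits), and mitochondrial ribosomal proteins had 1 higher and 2 lower of 70. Translation factors had 7 of 63 higher and 2 lower (higher in 5 other fits: 3, 1, 2, 1 and 1). Eif3c, a subunit of the initiation factor that recruits the small ribosomal subunit, was the member called in every fit, with 8488 and 8381 at 72 h, against 3433 and 3557 at 0 h (1.25 ± 0.14, adjusted p = 0.000694). DEAD and DEAH box RNA helicases had 4 of 47 higher (5 other fits: 1, 1, 2, 2 and 1). Among these helicases, Ddx3x, which unwinds messenger RNA leaders, read 3178 and 3143 at 72 h, against 1562 and 1146 at 0 h (1.19 ± 0.19, adjusted p = 0.00413).

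**Figure D3:**
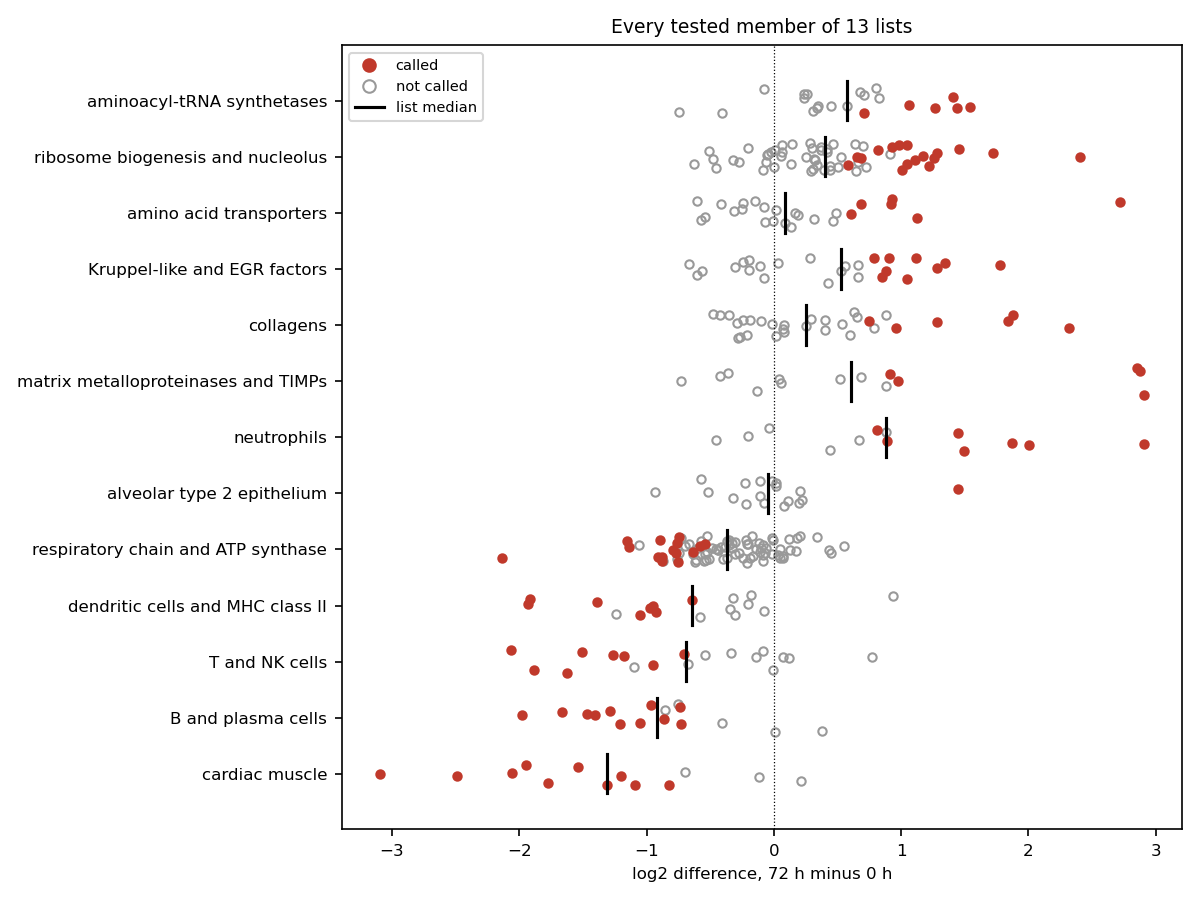
Log2 difference (72 h minus 0 h) of every tested member of 13 lists; filled points were called, open points were not, and the bar is the list median. Synthetases and ribosome biogenesis genes lie mostly right of 0 (medians 0.57 and 0.40) and the respiratory chain left of it (median -0.37).

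Respiratory chain and ATP synthase subunits, which make ATP in mitochondria, fell: 15 of 83 members were lower (18.1%) and 0 higher, with a median of -0.37 against -0.06 for all genes (5 other fits: 6, 6, 4, 3 and 3). Cox7a1, the cytochrome oxidase subunit of heart and skeletal muscle, read 55.7 and 68.7 at 72 h, against 415 and 699 at 0 h, dim at 72 h (-2.14 ± 0.21, adjusted p = 0.000226). Ndufv3, a subunit of complex I, read 533 and 619 at 72 h, against 1449 and 1276 at 0 h (-1.14 ± 0.17, adjusted p = 0.0035). The other 13 called members fell by less than Cox7a1. At the other end Atp5g2, a subunit of the ATP synthase ring, read 2125 and 1987 at 72 h, against 1314 and 1424 at 0 h and was not called (log2 difference 0.55 ± 0.24, adjusted p = 0.214).

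Markers of heart muscle, a tissue rich in these subunits, moved with them: 10 of 13 cardiac markers were lower, and the summed intensity of 10 cardiac markers on array type A was 10315 and 10465 at 72 h, against 38088 and 40361 at 0 h. Their part in the fall of the respiratory chain was not tested, and in RNA of a tissue fewer cells of a type and less RNA per cell cannot be told apart. Cox6a2, another subunit of muscle, read 5406 and 4019 at 72 h, against 3569 and 3310.2 at 0 h and was not called (log2 difference 0.43 ± 0.19, adjusted p = 0.214).

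Glycolysis genes split: 2 of 27 were higher and 3 lower (higher in 5 other fits: 1, 1, 1, 1 and 1; lower: 3, 2, 2, 2 and 3). Hk2, the inducible hexokinase that traps glucose in the cell, read 1064 and 1000 at 72 h, against 181 and 237 at 0 h (1.95 ± 0.16, adjusted p = 9.7e-05). The falls called in every fit were in isoforms of muscle. Pgam2, muscle phosphoglycerate mutase, read 30.7 and 28.3 at 72 h, against 483 and 454 at 0 h, dim at 72 h (-2.34 ± 0.16, adjusted p = 4.46e-05). Eno3, muscle enolase, read 603 and 766 at 72 h, against 1785 and 2129 at 0 h (-1.42 ± 0.20, adjusted p = 0.00234). The cardiac and skeletal marker sums fell beside them, and their part was not tested here either.

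Fatty acid oxidation and uptake had 1 of 32 higher and 6 lower (lower in 5 other fits: 2, 1, 3, 2 and 1). Plin2, the coat protein of lipid droplets, read 9207 and 10953 at 72 h, against 2257 and 2812 at 0 h (1.96 ± 0.33, adjusted p = 0.00544). Fabp1, a fatty acid-binding protein known from liver and also a listed macrophage marker here, read 14.3 and 9.14 at 72 h, against 584 and 768 at 0 h, dim at 72 h (-3.05 ± 0.17, adjusted p = 1.49e-05). Sterol and fatty acid synthesis had 4 of 33 higher and 1 lower (higher in 5 other fits: 2, 2, 2, 1 and 2), and Fdps, farnesyl diphosphate synthase of the mevalonate pathway, was called in every fit, with 4105 and 4077 at 72 h, against 1342 and 1695 at 0 h (1.39 ± 0.16, adjusted p = 0.000794).

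Collagens, the main structural proteins of the extracellular matrix, had 6 of 31 members higher (19.4%) and 0 lower, with a median of 0.25 (5 other fits: 5, 5, 4, 5 and 4). Col4a1 and Col4a2 are paired chains of basement membrane. Col4a1 read 7839 and 9186 at 72 h, against 2273 and 2355 at 0 h (1.84 ± 0.15, adjusted p = 9.27e-05). Col4a2 read 21203 and 18319.5 at 72 h, against 4781 and 3121 at 0 h (2.32 ± 0.29, adjusted p = 0.000573). Col5a2, a chain that nucleates fibrils, read 1253 and 1525 at 72 h, against 331 and 309 at 0 h (1.88 ± 0.16, adjusted p = 0.000118). Col1a1, the main chain of fibrillar collagen, read 1772 and 1973 at 72 h, against 820.3 and 637 at 0 h (1.28 ± 0.18, adjusted p = 0.00197). Among the members without a call, Col6a3 read 1229 and 1819 at 72 h, against 1968 and 2287 at 0 h (log2 difference -0.47 ± 0.32, adjusted p = 0.443).

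Of the enzymes and fibres that bind collagen and elastin together, 2 of 21 were higher and 1 lower (higher in 5 other fits: 2, 2, 2, 2 and 1). Lox, lysyl oxidase, which crosslinks both, read 1316 and 1233 at 72 h, against 204 and 193 at 0 h (2.29 ± 0.16, adjusted p = 4.49e-05). Eln, elastin, read 4518 and 3427 at 72 h, against 2857 and 1799 at 0 h and was not called (log2 difference 0.77 ± 0.29, adjusted p = 0.154). Laminins and other basement membrane proteins had no call among 13.

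Matrix glycoproteins and proteoglycans went both ways, with 5 of 37 higher and 4 lower (higher in 5 other fits: 6, 3, 4, 4 and 3; lower: 1, 1, 1, 1 and 2). Ccn2, connective tissue growth factor, read 7469 and 9069 at 72 h, against 1597 and 1737 at 0 h (2.25 ± 0.17, adjusted p = 6.27e-05). Ccn1, its relative CYR61, read 1572 and 1695 at 72 h, against 568 and 358 at 0 h (1.69 ± 0.19, adjusted p = 0.000689). Vcan, the large proteoglycan versican, read 672 and 791 at 72 h, against 75.1 and 40.9 at 0 h, dim at 0 h (2.58 ± 0.21, adjusted p = 8.3e-05). These 3 rose while Ogn, the small leucine-rich proteoglycan osteoglycin, fell, with 1666 and 2246 at 72 h, against 5094 and 6639 at 0 h (-1.55 ± 0.23, adjusted p = 0.00271).

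Markers of fibroblasts, which make much of the matrix, had 3 of 20 higher and 5 lower, with a median of -0.39 (higher in 5 other fits: 3, 2, 1, 2 and 1; lower: 1, 0, 0, 0 and 1). Col1a1 and Col3a1 are in this list too. Its summed intensity on array type A was 52073 and 59072 at 72 h, against 63999 and 61009 at 0 h, and its part in the matrix values was not tested.

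Matrix metalloproteinases and their inhibitors had 5 of 14 higher (35.7%) and 0 lower (5 other fits: 4, 5, 4, 4 and 3). Mmp3, stromelysin, which cuts proteoglycans and other matrix proteins, read 1084 and 1619 at 72 h, against 99.6 and 134 at 0 h, dim at 0 h (2.85 ± 0.28, adjusted p = 0.000235). Mmp19 read 2245 and 2059 at 72 h, against 127 and 253 at 0 h, dim at 0 h (2.88 ± 0.33, adjusted p = 0.000258). Mmp8, the collagenase of neutrophil granules, read 669 and 1328 at 72 h, against 72.6 and 45.2 at 0 h, dim at 0 h (2.91 ± 0.34, adjusted p = 0.000753). Mmp14, a membrane-bound collagenase, read 2634 and 2544 at 72 h, against 1209 and 1344 at 0 h; its adjusted p was 0.00363 in the full fit and 0.0537 with the 12 arrays only. Neutrophil markers rose beside this family (summed intensity on array type A 26739 and 27365 at 72 h, against 13405 and 14013 at 0 h), and their part in the Mmp8 value was not tested.

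**Figure D4:**
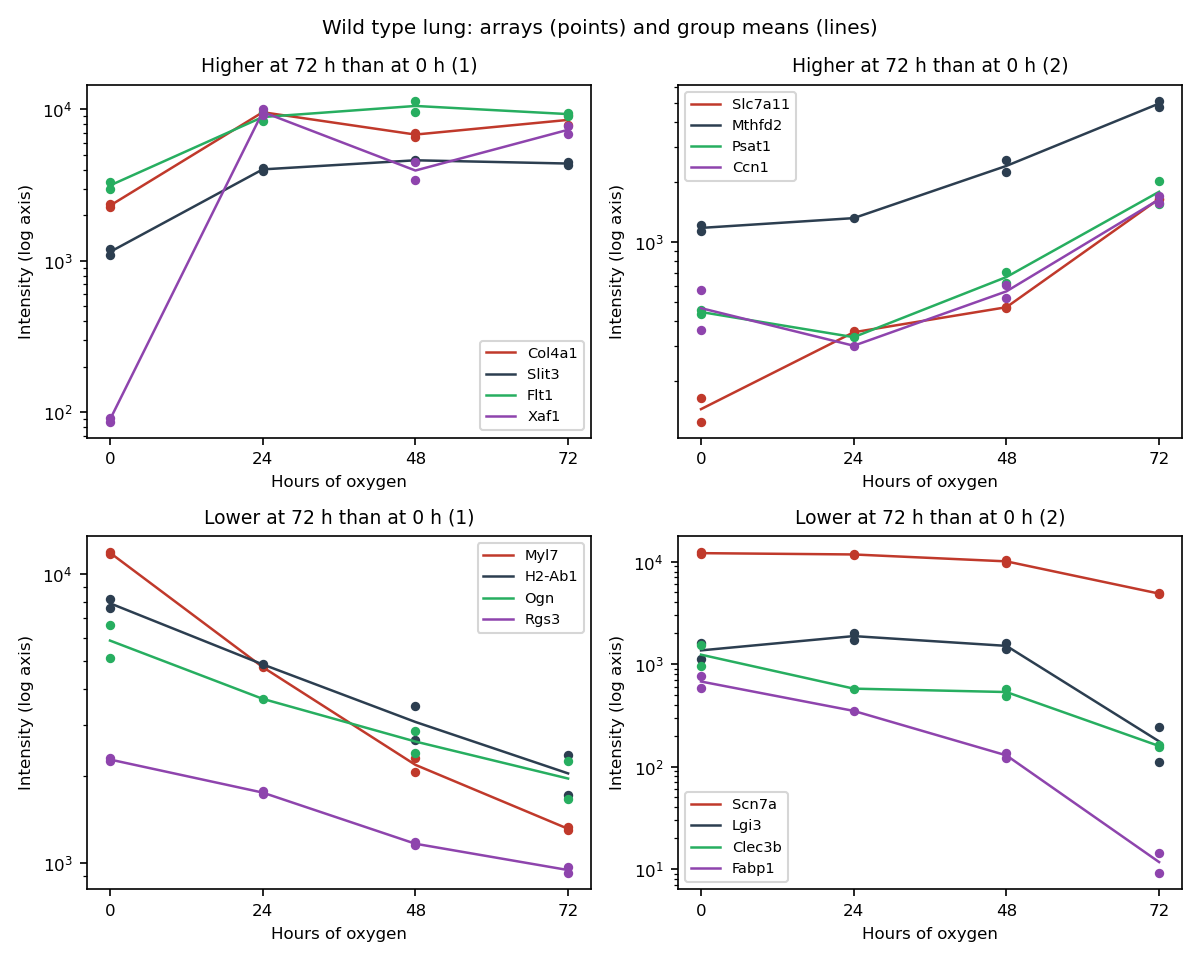
Intensity (log axis) against hours of oxygen in wild type lung for 16 genes that differ between 72 h and 0 h; points are arrays, of which array type A has 1 at 24 h, and lines join group means. Col4a1 was at 9565 at 24 h, whereas Slc7a11 was 354 and 346 at 24 h and 1646 and 1642 at 72 h.

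Ligands and regulators of the TGF-beta family, which drives matrix synthesis and growth arrest, had 9 of 49 members higher (18.4%) and 1 lower (higher in 5 other fits: 5, 3, 4, 5 and 4). Among ligands, Inhbb, a subunit of activin B, read 1087 and 1087 at 72 h, against 139.7 and 141 at 0 h, dim at 0 h (2.41 ± 0.21, adjusted p = 0.000118). Bmp2, a bone morphogenetic protein, read 1410.2 and 1616 at 72 h, against 474 and 577 at 0 h (1.33 ± 0.18, adjusted p = 0.000984). Smad2, which carries the signal of activin and TGF-beta receptors to the nucleus, read 1881 and 1793 at 72 h, against 784 and 899.8 at 0 h (1.06 ± 0.18, adjusted p = 0.0057). The ligand Bmp4 read 1630.4 and 1715 at 72 h, against 2473 and 2322 at 0 h and was not called (log2 difference -0.50 ± 0.16, adjusted p = 0.101).

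Ligands and receptors of developmental signalling rose in single members. In the Notch and Hedgehog list 4 of 25 were higher and 1 lower (higher in 5 other fits: 1, 1, 1, 1 and 1), and Dll1, a Notch ligand, read 2139 and 2174 at 72 h, against 289 and 345 at 0 h (2.50 ± 0.21, adjusted p = 9.7e-05). Guidance genes (semaphorins, plexins, ephrins, netrins and slits) had 7 of 54 higher and 0 lower (5 other fits: 3, 4, 4, 2 and 3). Slit3, a ligand of Robo receptors, read 4276 and 4495 at 72 h, against 1092 and 1199 at 0 h (1.83 ± 0.16, adjusted p = 5.28e-05). Epha2, an ephrin receptor, read 1390.2 and 1081 at 72 h, against 190.3 and 179 at 0 h, dim at 0 h (2.31 ± 0.19, adjusted p = 8.08e-05). Fzd5, a WNT receptor, read 1268 and 1238 at 72 h, against 475 and 335 at 0 h (1.39 ± 0.17, adjusted p = 0.000534), in a list with 4 of 41 higher and 3 lower (higher in 5 other fits: 2, 2, 3, 1 and 1). Flt1, the VEGF receptor 1, read 9501 and 9091 at 72 h, against 2982 and 3306 at 0 h (1.53 ± 0.23, adjusted p = 0.00201), with an adjusted p of 0.0624 when the 12 arrays stood alone.

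Dual specificity phosphatases, Sprouty proteins and MAP kinases had 9 of 63 higher (14.3%) and 0 lower (5 other fits: 5, 5, 5, 5 and 3). Dusp8 and Dusp4 remove phosphate from MAP kinases. Dusp8 read 2608 and 3150.2 at 72 h, against 1052 and 747 at 0 h (1.56 ± 0.22, adjusted p = 0.00115). Dusp4 read 1686 and 1406 at 72 h, against 490.2 and 578 at 0 h (1.34 ± 0.20, adjusted p = 0.00172). Map3k6, a kinase upstream of JNK and p38, read 849 and 825 at 72 h, against 181 and 334 at 0 h (1.48 ± 0.22, adjusted p = 0.00307). Protein tyrosine phosphatases had 2 of 32 higher and 3 lower (higher in 5 other fits: 1, 0, 0, 0 and 0; lower: 1, 0, 0, 2 and 0). In the cytokine branch, SOCS, STAT and JAK genes had 4 of 21 higher and 0 lower (5 other fits: 2, 3, 2, 3 and 2). Socs3, the feedback inhibitor of interleukin 6 signalling, read 1236 and 1359 at 72 h, against 370.2 and 376 at 0 h (1.61 ± 0.17, adjusted p = 0.000384). In the EGF family list 1 of 9 was higher, Errfi1, a feedback inhibitor of the EGF receptor, which read 6389 and 6023 at 72 h, against 2133 and 2176 at 0 h (1.49 ± 0.14, adjusted p = 0.000229).

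Among transcription factors, Kruppel-like and EGR factors had 9 of 25 higher (36.0%) and 0 lower, with a median of 0.53 (5 other fits: 3, 3, 4, 5 and 2). Egr1 read 2056 and 2514 at 72 h, against 593 and 622 at 0 h (1.78 ± 0.20, adjusted p = 0.000579). Egr2 read 719 and 829.6 at 72 h, against 307 and 214 at 0 h (1.34 ± 0.18, adjusted p = 0.00174). Both are growth factor-induced zinc finger activators, and the other 7 calls did not hold in every fit. The list of bHLH, GATA, ETS and CEBP factors had 7 of 47 higher and 2 lower (higher in 5 other fits: 7, 6, 6, 7 and 6). Bhlhe40, a repressor that hypoxia and the clock induce, read 2164 and 2221 at 72 h, against 597 and 558 at 0 h (1.79 ± 0.16, adjusted p = 0.000171). Myc, which drives ribosome biogenesis and growth, read 491 and 629.5 at 72 h, against 138 and 82.6 at 0 h, dim at 0 h (1.77 ± 0.21, adjusted p = 0.000737). Cebpd, an acute phase activator, read 11562 and 11827 at 72 h, against 4613 and 4749 at 0 h (1.31 ± 0.17, adjusted p = 0.00125). Hif1a, the oxygen-regulated subunit of hypoxia-inducible factor, read 8047 and 8493 at 72 h, against 3507 and 4289 at 0 h (1.08 ± 0.18, adjusted p = 0.00545). Circadian clock genes had 3 of 17 higher and 1 lower (higher in 5 other fits: 2, 1, 1, 2 and 1), of which Bhlhe40 is also in the list above. The 33 tested nuclear receptors had no call, 44 forkhead and SOX factors had 1, and 41 homeobox and T-box factors had 1 higher and 2 lower.

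Of the called genes that shape the actin cytoskeleton and its adhesions, most were higher. Over all tested actin regulators the median was -0.01, with 24 members above 0 and 25 below. For integrin names the median was 0.16. Actin regulators had 6 of 49 higher and 1 lower (higher in 5 other fits: 5, 2, 2, 3 and 2). Actn1, an actin crosslinker, read 6237 and 6288 at 72 h, against 1843 and 1989 at 0 h (1.67 ± 0.15, adjusted p = 0.000144). Vcl, vinculin, which couples integrins to actin, read 6140.3 and 6820.4 at 72 h, against 2557 and 2368 at 0 h (1.37 ± 0.15, adjusted p = 0.000603). Integrin names, which include binding proteins such as Itgb1bp2 that are no integrins, had 6 of 25 higher and 2 lower (higher in 5 other fits: 1, 2, 2, 1 and 1), and Itgb4, the hemidesmosome integrin of epithelium, read 421 and 596 at 72 h, against 79.1 and 59.7 at 0 h, dim at 0 h (1.98 ± 0.29, adjusted p = 0.00266). Krt8, an epithelial keratin, read 5395 and 5187 at 72 h, against 2022 and 2251 at 0 h (1.28 ± 0.17, adjusted p = 0.00151). Of 36 keratins 2 were higher (5.56%), near the 5.12% of all genes, and of these only Krt8 was called in every fit.

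Vasoactive genes went both ways, with 6 of 38 higher and 6 lower (higher in 5 other fits: 3, 4, 4, 3 and 2; lower: 3, 3, 4, 3 and 2). Pde4b, which degrades cyclic AMP, read 10449 and 10306 at 72 h, against 3238 and 3056 at 0 h (1.68 ± 0.16, adjusted p = 7.28e-05). Npr3, the clearance receptor of natriuretic peptides, read 2002 and 2101 at 72 h, against 580.3 and 534 at 0 h (1.67 ± 0.20, adjusted p = 0.00039). Nppa, atrial natriuretic peptide and also a cardiac marker, read 869 and 745 at 72 h, against 2443 and 2526 at 0 h (-1.54 ± 0.24, adjusted p = 0.00385). Ramp1, a partner of the CGRP receptor, read 782 and 698 at 72 h, against 1991 and 1787 at 0 h (-1.27 ± 0.15, adjusted p = 0.000738). Edn1, endothelin, gave unlike results by probe set, since 1 read 1801 and 1741 at 72 h, against 922 and 804 at 0 h (log2 difference 0.98 ± 0.15, adjusted p = 0.00371, and 0.0552 with the 12 arrays only) and the other read 819 and 749 at 72 h, against 1173 and 599 at 0 h (log2 difference -0.10 ± 0.30, adjusted p = 0.899). Among RGS proteins and G protein subunits, which shape the signal of these receptors, 6 of 42 were lower (14.3%) and 1 higher (lower in 5 other fits: 2, 3, 4, 2 and 3). Gng11, a gamma subunit, read 613 and 873 at 72 h, against 2584 and 2789 at 0 h (-1.77 ± 0.20, adjusted p = 0.000579). Rgs3, which shortens G protein signals, read 966 and 922 at 72 h, against 2304 and 2247 at 0 h (-1.17 ± 0.15, adjusted p = 0.000735).

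The 2 ion channel lists had few calls, with 2.94% to 8.16% of members called each way, against 5.12% higher and 4.66% lower of all genes. Sodium and calcium channels had 3 of 49 higher and 4 lower (lower in 5 other fits: 5, 2, 3, 2 and 1). Scn7a, a sodium sensing channel, read 4888 and 4853 at 72 h, against 12392 and 11787 at 0 h (-1.29 ± 0.14, adjusted p = 0.000227). Scnn1a, the alpha subunit of the epithelial sodium channel that clears alveolar fluid, read 9323 and 10822 at 72 h, against 3494 and 3165 at 0 h (1.56 ± 0.27, adjusted p = 0.00473), with an adjusted p of 0.0624 when the 12 arrays stood alone. Potassium and chloride channels had 5 of 68 higher and 2 lower (higher in 5 other fits: 2, 3, 3, 2 and 2), with Clcn5, an endosomal chloride exchanger, at 456 and 574 at 72 h, against 30.6 and 117 at 0 h, dim at 0 h (2.02 ± 0.28, adjusted p = 0.00195). Of 233 solute carriers 15 were higher (6.44%) and 7 lower, against 5.12% and 4.66% of all genes. Slc39a14, a zinc and iron importer, read 2122 and 1790.1 at 72 h, against 557 and 410.5 at 0 h (1.78 ± 0.21, adjusted p = 0.000314). Aquaporins had no call among 8.

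Markers of cells that a lung sample can hold moved in several directions. Cardiac muscle markers, which a lung with attached heart tissue or the muscular sleeve of mouse pulmonary veins can carry, had 10 of 13 lower (76.9%) and a median of -1.31 (5 other fits: 9, 9, 9, 8 and 9). Myl7, an atrial myosin light chain, read 1327 and 1294 at 72 h, against 11733 and 11871 at 0 h (-3.10 ± 0.16, adjusted p = 1.05e-05). Myl4, another atrial light chain, read 1095 and 1186 at 72 h, against 5995 and 7601 at 0 h (-2.49 ± 0.19, adjusted p = 7.28e-05). Tnni3, cardiac troponin I, read 833 and 657 at 72 h, against 3304 and 3364 at 0 h (-2.06 ± 0.18, adjusted p = 0.000107). For these 3 genes the 72 h arrays lay far below the 0 h arrays, and at 48 h Myl7 was at 2062 and 2300.2. Skeletal muscle markers had 4 of 9 lower (5 other fits: 3, 3, 2, 3 and 2), and Acta1, skeletal actin, which the heart also makes, read 108 and 85.9 at 72 h, against 1229 and 1596 at 0 h, dim at 72 h (-3.08 ± 0.25, adjusted p = 7.85e-05). Fat markers had 2 of 6 lower (5 other fits: 2, 2, 2, 2 and 1), of which Adipoq, adiponectin, read 581 and 635 at 72 h, against 1682 and 1768 at 0 h (-1.39 ± 0.18, adjusted p = 0.00148).

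Lymphocyte markers fell. B and plasma cell markers had 11 of 16 lower (68.8%; 5 other fits: 6, 4, 6, 6 and 5), and their summed intensity on array type A was 16786 and 17506 at 72 h, against 29236 and 28553 at 0 h. Ms4a1, the B cell antigen CD20, read 1098 and 1129 at 72 h, against 4399.7 and 4865 at 0 h (-1.98 ± 0.24, adjusted p = 0.000952). Cd79b, a chain of the B cell receptor, read 864 and 1088 at 72 h, against 2558 and 3118 at 0 h (-1.47 ± 0.19, adjusted p = 0.00125). Ighm, the immunoglobulin mu chain, read 3082 and 3026 at 72 h, against 6751 and 6101 at 0 h (-1.05 ± 0.15, adjusted p = 0.00237). T and NK cell markers had 8 of 18 lower (44.4%; 5 other fits: 6, 4, 6, 4 and 5), and their sum was 4577 and 4036 at 72 h, against 7912 and 9568 at 0 h. Cd3e, a chain of the T cell receptor complex, read 89.2 and 101 at 72 h, against 656 and 643 at 0 h, dim at 72 h (-2.07 ± 0.35, adjusted p = 0.00617). Klrd1, the CD94 receptor of natural killer cells, read 118 and 193 at 72 h, against 534 and 626 at 0 h, dim at 72 h (-1.51 ± 0.23, adjusted p = 0.00343). Cd4 read 340.1 and 383 at 72 h, against 279.7 and 379 at 0 h and was not called.

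MHC class II and dendritic cell genes, which present antigen to T cells, had 8 of 17 lower (47.1%) and 0 higher, with a median of -0.64 (5 other fits: 5, 2, 2, 2 and 3). H2-Ab1, a beta chain, read 1722 and 2353 at 72 h, against 7597 and 8192 at 0 h (-1.93 ± 0.21, adjusted p = 0.000522) and was called in every fit. H2-Aa, the alpha chain that pairs with it, read 8899 and 8142 at 72 h, against 17133 and 15479 at 0 h (-0.93 ± 0.16, adjusted p = 0.00644), with an adjusted p of 0.0604 for the 12 arrays alone. Psmb9, the immunoproteasome subunit encoded in the same gene complex, read 1521 and 1248 at 72 h, against 3334 and 3563 at 0 h (-1.28 ± 0.15, adjusted p = 0.000873), in a proteasome family with 1 of 46 higher and 2 lower. The Y box CTGATTGG, which NF-Y binds in MHC class II promoters, was searched in the same windows on both strands, and was found in 1346 of 32851 windows (4.097%). Counted by gene, which is another unit, it was in 2 of the 5 called members that have a window (H2-Aa and H2-Oa) and in 3 of 13 tested. The H2-Aa window at chr17:34287774-34288073 on the minus strand of GRCm38.p6 (RefSeq) is shown with the motif in capitals, because its gene fell and holds it.
H2-Aa: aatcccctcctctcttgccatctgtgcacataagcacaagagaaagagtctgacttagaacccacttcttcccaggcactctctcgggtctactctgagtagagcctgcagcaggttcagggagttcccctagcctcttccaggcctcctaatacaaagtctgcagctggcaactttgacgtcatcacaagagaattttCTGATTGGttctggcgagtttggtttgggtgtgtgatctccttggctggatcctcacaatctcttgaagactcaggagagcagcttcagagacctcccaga

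**Figure D5:**
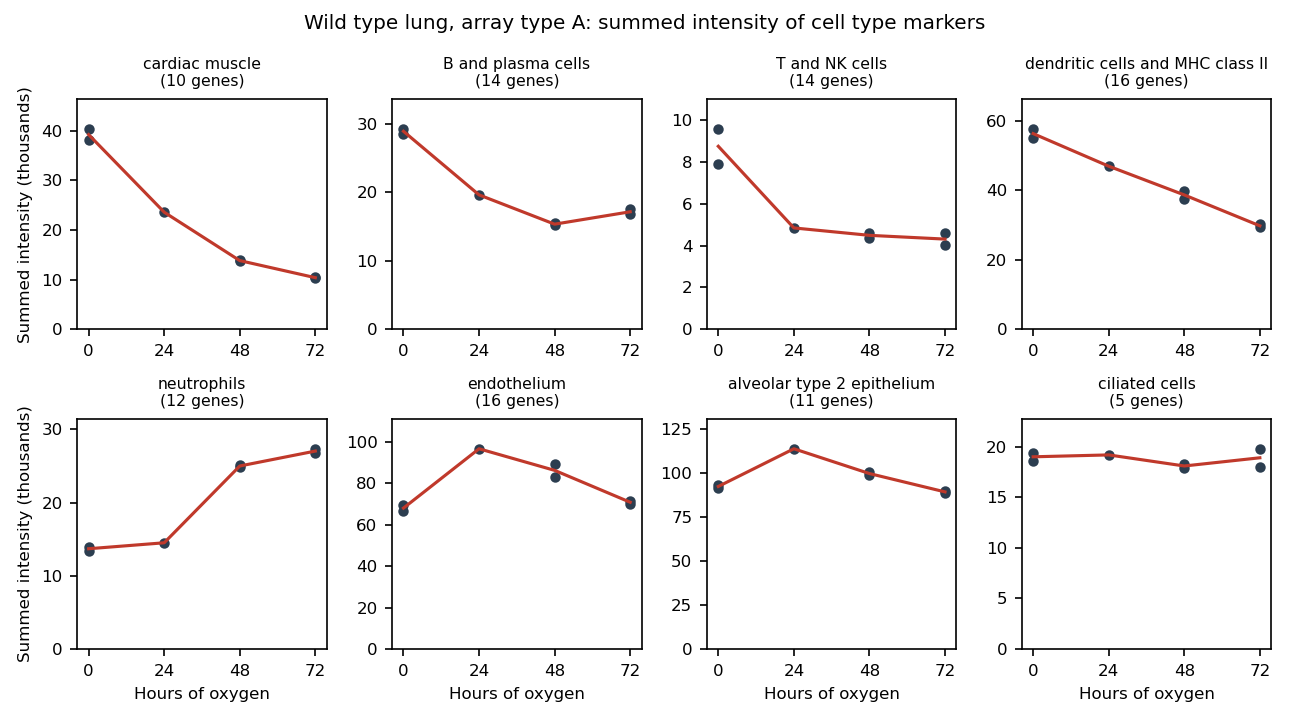
Summed intensity (in units of 1000) of cell type markers on array type A against hours of oxygen in wild type lung; points are arrays (1 at 24 h) and the line joins group means. The cardiac sum falls at each time, while the alveolar type 2 sum was 88433 and 89966 at 72 h, against 93168 and 91404 at 0 h.

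Myeloid markers rose in part. Neutrophil markers had 7 of 13 higher (53.8%) and 0 lower (5 other fits: 6, 5, 5, 5 and 4). Il1r2, the decoy receptor of interleukin 1, read 1419 and 749 at 72 h, against 198 and 198 at 0 h (2.01 ± 0.32, adjusted p = 0.00415). Lcn2, lipocalin 2, which inflamed epithelium also makes, read 6311 and 7013 at 72 h, against 2393 and 2386 at 0 h (1.45 ± 0.24, adjusted p = 0.00563). The granule genes Ltf, at 644 and 621 at 72 h, against 855 and 933 at 0 h, and Camp, at 590.1 and 491 at 72 h, against 757 and 528 at 0 h, were not called. Macrophage and monocyte markers had 4 of 24 higher and 1 lower (higher in 5 other fits: 4, 3, 3, 3 and 3). Marco, a scavenger receptor, read 1019.5 and 1126 at 72 h, against 262 and 256 at 0 h (1.77 ± 0.17, adjusted p = 0.000235). Gpnmb, a glycoprotein of lipid-laden macrophages, read 4777 and 5183 at 72 h, against 1740 and 1920 at 0 h (1.38 ± 0.18, adjusted p = 0.000671). Erythroid markers had 4 of 9 lower (5 other fits: 1, 1, 1, 1 and 1), with Bpgm, which makes 2,3-bisphosphoglycerate, at 3105 and 3510.2 at 72 h, against 7578 and 8427 at 0 h (-1.24 ± 0.17, adjusted p = 0.000933).

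Epithelial marker lists had few calls, but their shares differed. Club cell markers had 18.2% lower, and alveolar type 1 markers had 12.5% higher and 6.25% lower. In the alveolar type 2 and ciliated lists at most 5.56% of members were called in either direction, against 5.12% higher and 4.66% lower of all genes. Alveolar type 2 markers had 1 of 18 higher, which was Lcn2 again, and 0 lower, with a median of -0.05. Sftpb, a surfactant protein, read 16230.5 and 14155 at 72 h, against 11461 and 15133 at 0 h (log2 difference 0.20 ± 0.31, adjusted p = 0.778). Alveolar type 1 markers had 2 of 16 higher (Cyp2b10 and Icam1) and 1 lower (Pdpn), with a median of -0.33. With the 12 arrays only, Icam1 and Pdpn were not called (adjusted p = 0.118 and 0.0694). Ager, their defining receptor, read 14172 and 14026 at 72 h, against 17120.4 and 15557 at 0 h and was not called. Club cell markers had 0 of 11 higher and 2 lower, and neither fall was called in every fit. Scgb3a2, a secretoglobin, read 1502 and 1739 at 72 h, against 3576 and 4085 at 0 h (-1.18 ± 0.21, adjusted p = 0.00562, and 0.0456 with the 12 arrays only). Gabrp read 3308 and 3365 at 72 h, against 5965 and 6935 at 0 h (-0.92 ± 0.16, adjusted p = 0.00469, and 0.068 with the 12 arrays only). Ciliated cell markers had 1 higher and 1 lower of 18. Endothelial markers had 5 of 29 higher and 2 lower (higher in 5 other fits: 3, 3, 4, 3 and 2), among them Vwf, von Willebrand factor, with 3350.3 and 3909 at 72 h, against 1746 and 1646 at 0 h (1.06 ± 0.15, adjusted p = 0.00236). Their sum on array type A was 70192 and 71440.5 at 72 h, against 69317 and 66682 at 0 h.

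No tested gene of the division list was called higher. Cell cycle and mitosis genes had 0 of 30 higher and 4 lower, with a median of -0.46 (lower in 5 other fits: 0, 1, 0, 0 and 0). In the histone list (1 of 11 lower), H2az2, a variant of histone H2A, read 1367 and 1461 at 72 h, against 3816 and 4714 at 0 h (-1.53 ± 0.20, adjusted p = 0.00151). The citric acid cycle (25 genes), purine and pyrimidine synthesis (24) and the chaperonin CCT with prefoldin (16) had no call, and their medians were -0.08, 0.06 and 0.01. The actin gene Actb varied widely between replicates, at 2958 and 744 at 72 h, against 4482 and 6422 at 0 h, and was not called.

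Lists of protein turnover and traffic, splicing factors, tetraspanins, serpins and cytochromes P450 had unlike shares of calls. The ubiquitin, Rab and splicing lists lay below the share of all genes in each direction (5.12% higher and 4.66% lower). Ubiquitin conjugating and deubiquitinating enzymes had 1 of 78 higher and 2 lower, Rab GTPases 2 of 62 higher and 0 lower, and splicing factors 1 of 61 higher and 1 lower. Coat proteins and the endoplasmic reticulum translocon had 4 of 54 higher (7.41%) and 2 lower (higher in 5 other fits: 0, 1, 1, 1 and 0; lower: 2, 1, 1, 1 and 0). Lysosomal enzymes had 3 of 23 higher (13.04%), above the share of all genes (higher in 5 other fits: 3, 2, 2, 2 and 2). Ctsk, the collagen-degrading cathepsin K, read 1674 and 2026 at 72 h, against 532 and 609.6 at 0 h (1.57 ± 0.21, adjusted p = 0.00154). Npc1, the lysosomal cholesterol exporter, read 2115 and 2762 at 72 h, against 927 and 1015 at 0 h (1.25 ± 0.16, adjusted p = 0.00151). Tetraspanins had 5 of 27 lower (18.52%), also above the share of all genes, and 1 higher (lower in 5 other fits: 2, 0, 0, 2 and 2). Serpins had 1 of 30 higher and 1 lower, and Serpina3n, an acute phase protease inhibitor, read 11992 and 12589.7 at 72 h, against 3333 and 2556 at 0 h (2.04 ± 0.21, adjusted p = 0.000396). Cytochromes P450 had 1 of 34 higher and 3 lower (8.82%). Cyp2b10, an inducible enzyme of drug metabolism, read 13198 and 14283 at 72 h, against 5491 and 6539.9 at 0 h (1.19 ± 0.17, adjusted p = 0.00236).

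The remaining lists reported here had 5 or fewer calls each. Against 5.12% higher and 4.66% lower of all genes, mesothelium had 22.2% higher and insulin and IGF signalling 15.4% lower. Platelet markers had 14.3% each way, smooth muscle 12.5% lower and carbonic anhydrases 11.1% lower. Each of these shares rests on 1 or 2 calls. In the other lists of this paragraph no share was above 9.52%. Among adhesion and junction genes, claudins and junction proteins had 2 of 36 higher and 3 lower, cadherins 1 of 22 higher, and ADAM and ADAMTS proteases 1 of 27 higher. Growth factor genes of the VEGF, PDGF, FGF and HGF group had 3 of 37 higher and 2 lower, and insulin and IGF signalling had 2 of 13 lower. Annexins and S100 proteins had 2 of 21 higher and 2 lower. Nuclear import and export had 3 of 47 higher, DNA replication 1 of 31 lower, and carbonic anhydrases 1 of 9 lower. Kinesins had 1 higher and 1 lower of 26, tubulins and microtubule proteins 1 higher and 1 lower of 36, and phospholipid synthesis 1 higher and 1 lower of 21. Sodium-potassium and vacuolar ATPases had 1 higher and 2 lower of 28. Markers of smooth muscle had 1 higher and 2 lower of 16, mesothelium 2 higher of 9, and platelets 1 higher and 1 lower of 7.

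The last day of exposure was compared as 72 h against 48 h in wild type lung. Here 160 of 26821 probe sets were called (0.597%), 106 higher (0.395%) and 54 lower (0.201%), while 3329 had an unadjusted p under 0.05. The count was 56 and 17 without 72 h replicate 1a or 1b, 13 and 10 without 48 h replicate 1a or 1b, and 4 with the arrays of these 2 groups only. The 72 h arrays are shared with the comparison to 0 h, so both use the same 72 h values. Of 16 probe sets named for this step, 4 were called in each fit that left out 1 replicate.

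Srxn1, sulfiredoxin, which restores oxidised peroxiredoxins, was at 1283 and 1342 at 72 h, against 295 and 269 at 48 h (log2 difference 1.95 ± 0.19, adjusted p = 0.00238), and it was 274 and 169 at 0 h. Hspa1a and Hspa1b, the inducible HSP70 chaperones, went the other way. Hspa1b was at 965 and 999 at 72 h, against 7371 and 8240.2 at 48 h (log2 difference -2.89 ± 0.17, adjusted p = 8.65e-05) and 372 and 272 at 0 h. Hspa1a was at 1049 and 749 at 72 h, against 8349 and 6788 at 48 h (log2 difference -2.98 ± 0.25, adjusted p = 0.00106). These near-identical genes can share probes, so they are not separate evidence. Lgi3, a secreted leucine-rich protein, was at 242 and 111 at 72 h, dim, against 1599 and 1412 at 48 h (log2 difference -2.46 ± 0.25, adjusted p = 0.00158).

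In the fit of the 2 groups alone the adjusted p was 0.0615 for Srxn1 and 0.108 for Lgi3, while both HSP70 genes stayed called (0.0146 for Hspa1b and 0.0271 for Hspa1a).

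Of the 2773 tested family and marker genes, 32 were called between 48 and 72 h, with 22 higher and 10 lower. Of all genes, 0.777% were called. No such call of a list member held in each of the fits that left out 1 replicate. The values below are therefore those of the full fit. Slc7a11 was at 1646 and 1642 at 72 h, against 472 and 465 at 48 h (log2 difference 1.57 ± 0.21, adjusted p = 0.00742). Psat1 was at 1557 and 2013 at 72 h, against 708 and 621 at 48 h (1.32 ± 0.19, adjusted p = 0.0154). In the serine, folate and polyamine list, Arg2, Mthfd2, Odc1 and Psat1, or 4 of 23 members, were higher than at 48 h, against 0.538% of all genes. Lcn2 was at 6311 and 7013 at 72 h, against 2218 and 1608 at 48 h (1.77 ± 0.24, adjusted p = 0.0131).

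Some genes of collagen and its processing were lower than at 48 h. Col1a1 was at 1772 and 1973 at 72 h, against 3530.2 and 3809.9 at 48 h (-0.94 ± 0.18, adjusted p = 0.0481), and the 1 array at 24 h read 5918. Plod1, which hydroxylates lysines of collagen, was at 1125 and 1523 at 72 h, against 3146 and 2840 at 48 h (-1.12 ± 0.18, adjusted p = 0.0162). P4ha1, a prolyl hydroxylase of collagen, was at 718 and 561 at 72 h, against 1512 and 1328 at 48 h (-1.07 ± 0.17, adjusted p = 0.0217). Serpinh1, the collagen chaperone HSP47, was at 2513 and 2069 at 72 h, against 4694 and 4513 at 48 h (-0.99 ± 0.16, adjusted p = 0.0292). Between 72 h and 0 h, Plod1 and P4ha1 were not called (adjusted p = 0.342 and 0.943), and Serpinh1 read 3611 and 3541 at 0 h (log2 difference -0.63 ± 0.16, adjusted p = 0.0419), with an adjusted p of 0.147 in the fit of the 12 arrays. Scn7a was at 4888 and 4853 at 72 h, against 10426 and 9673 at 48 h (-1.02 ± 0.14, adjusted p = 0.00864). For the synthetases, the respiratory chain, the cardiac markers and the B cell markers no member was called between 48 and 72 h. With 0.777% of all genes called in this step, that does not show that these lists stood still. Their median log2 differences from 48 h were 0.25, 0.09, -0.28 and -0.02, in the same order.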

How the data were processed

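Total RNA of mouse lung was hybridised to 46 oligonucleotide arrays of 3 types, of which 12 make up the main comparison. The values are linear intensities per probe set as the authors deposited them. Their mean, with 2% trimmed at each end, was close to 800 on every array (800.2 to 800.5), so each array had already been scaled to a common level. Wild type 24 h and mutant 0 h had 1 array on type A, and each other group 2 per type. The software, background correction and genome build were not given in the sources used here, and the number of arrays limits the precision.

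From these values, the 25th percentile of an array type (78.5 for A, 126.1 for B and 105.5 for C) was added before log2, and 66 control probe sets per type were removed. Probe sets above the 40th percentile of their type (195.9, 272.6 and 210.4) on at least 2 arrays were tested, 8502, 8948 and 9371 of them. A linear model with 8 groups was fitted per array type with limma 3.58.1 in R 4.3.3, and p-values were adjusted over all 26821 probe sets by Benjamini and Hochberg. The fit was tested on simulated data first. GEO's platform annotation, with symbols updated by Entrez ID through RefSeq, gave 1 symbol to 21856 tested probe sets, several to 546 and none to 4419.

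Genes named are the 20 largest rises and 20 largest falls without overlap between the groups, up to 6 called members of each list by p-value, the 8 largest rises and falls between 72 h and 48 h, and Nfe2l2, Gapdh and Actb; members not called, and 2 collagen enzymes of the last day (Plod1 and P4ha1), are named to show the range of a list. The members and lists were chosen with earlier results of these data known. Alternatives covered the added value, scaling, filter, arrays in the fit, replicate number as a block, variance model, adjustment and each replicate left out. The members of 1 family are counted in the totals and not reported here.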

Additional observations from a re-analysis of the deposited data

How the results depend on the processing

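Between 72 h and 0 h, 2107 probe sets were called, against 587 with the arrays of the 2 groups only and 816 to 1065 when 1 replicate was left out, where the lone array of a type was taken to vary like the other groups. All 338 named genes kept their direction in each alternative that tested them, and 134 stayed called in the 5 fits with fewer arrays. The family counts came to 388 genes, against 137 with the arrays of the 2 groups only and 172 to 218 without 1 replicate. Between 72 h and 48 h, 160 probe sets were called, against 4 with the arrays of the 2 groups only, 41 with the wild type arrays only, 289 with the filter at the 60th percentile, 292 with a trended and robust variance, 269 when p-values were adjusted within an array type, and 10 to 56 without 1 replicate. Fewer arrays leave fewer residual degrees of freedom; the cause of the other shifts was not tested. The other settings (quantile normalization, no filter on dim signal, a floor instead of an added value, and no mutant 0 h arrays) moved the 3 counts by less than 1.5 times.

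With the replicate number as a block, the counts were 2559, 235 and 455. The labels do not say what 1a and 1b share, and same-numbered deviations correlated at 0.358, -0.00922 and 0.0534 on types A, B and C for 72 h and 0 h, and at 0.0956, 0.125 and 0.0415 for 72 h and 48 h. Signals below the filter value limit the size of differences, and 2 arrays per group and type limit all of them.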
